A study of Homo sapiens with 12 samples.

Results

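The HOX genes of the HOXA, HOXB, HOXC and HOXD clusters were taken by symbol, which gave 38 genes among 20136 protein-coding genes on chromosomes 1 to 22, X and Y. There were 10 members in HOXA, 10 in HOXB, 9 in HOXC and 9 in HOXD. A further HOX gene was not analysed here. H3K4me3, trimethylation of lysine on the tail of histone H3, was mapped by CUT&RUN, a method in which a nuclease tethered through an antibody cuts out the chromatin it is bound to, so that the freed DNA can be sequenced. The cells were BON1, a human pancreatic neuroendocrine tumor line, either control cells (BON1/TGL/pQ) or cells that overexpress an epitope-tagged form of Bcl-xL, an anti-apoptotic protein, and are called HA-Bcl-xL cells here. Both were grown with puromycin, and 500000 cells were used per condition. Peak lists of 11 libraries were read: 5 with the H3K4me3 antibody (3 control, 2 HA-Bcl-xL) and 6 with a rabbit anti-mouse IgG (3 of each line). Of the HA-Bcl-xL cells, H3K4me3 replicates 2 and 3 were read, and replicate 1 was not analysed here. Values below are given in the order of the replicate numbers. The labels do not say whether replicates came from separate cultures or whether a line was a clone, so any p-value measures only the spread between these libraries.

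HOX genes encode homeodomain transcription factors that give cells a position along the head-to-tail axis of the embryo. They stand in clusters in the order in which they act, from the anterior genes with low numbers to the posterior genes with high numbers, and all genes of a cluster are transcribed in the same direction. H3K4me3 marks promoters in use and, together with Polycomb marks, promoters that are held silent. Over active HOX stretches it is known to spread across many neighbouring genes, while inactive stretches are covered by H3K27me3, which was not measured here.

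A promoter was called marked in a library when at least 1 bp of a deposited peak lay no more than 1 kb away from the most 5′ end annotated for the gene. The 3 control H3K4me3 libraries had 14, 10 and 4 marked HOX promoters (9.33 ± 5.03, SD, n = 3), and the HA-Bcl-xL libraries had 13 and 10 (11.5 ± 2.12, SD, n = 2). Control replicate 3 stood lowest, and it also had the fewest peaks of the H3K4me3 libraries genome-wide and the lowest solved background among them. With all lists cut to the same number of peaks, the mean number of marked HOX promoters was 8.0 in each line. The list of control replicate 3 set that number, so it stayed whole and kept its 4 marked promoters. The part of the background in the count was not tested. None of the 6 IgG libraries had a peak within 1 kb or within 2.5 kb of a HOX gene, where 0.785% and 1.47% of all genes had one in at least 1 IgG library.

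HOXB3, HOXB6 and HOXB13 were the only members marked in all 5 H3K4me3 libraries. This was 7.89% of the members, while 21.3% of all protein-coding genes were marked in all 5. In at least 3 libraries 9 HOX promoters were marked (HOXA6, HOXA10, HOXA11, HOXB3, HOXB6, HOXB9, HOXB13, HOXC4 and HOXC5), 23.7% of the members against 35.5% of all genes. In at least 1 library 19 of 38 were marked, where 48.2% of all genes were. The HOX share thus lay near the share of all genes for any detection and below it for detection in every library. The latter count rested on control replicate 3, without which HOXA11, HOXB9, HOXC4 and HOXC5 joined the 3 genes, giving 18.4% of the members and 25.6% of all genes. It stayed at 7.89% when any other library was left out, beside 21.6 to 23.2% of all genes. Counted per library, the HOX share was 36.8, 26.3 and 10.5% in the control libraries, where all genes had 40.4, 32.4 and 28.2%. The HA-Bcl-xL libraries had 34.2 and 26.3%, where all genes had 38.1 and 36.5%. It was lower than the share of all genes in each of the 5 libraries. Within 2.5 kb the order turned in HA-Bcl-xL replicate 2, where 19 of 38 HOX genes and 43.4% of all genes had a peak.

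The wider window and other transcript starts changed which genes were called. Within 2.5 kb of the most 5′ end, HOXA10, HOXA11, HOXB3, HOXB6, HOXB13 and HOXC10 had a peak in all 5 libraries (15.8% of the members, 25.6% of all genes). In at least 3 libraries 14 had one (36.8% against 41.1%), and in at least 1 library 23 (60.5% against 53.5%). Within 1 kb of the canonical start, HOXB6, HOXB13, HOXC4 and HOXC9 were marked in all 5 libraries, 10.5% of the members against 22.9% of all genes. Within 1 kb of any annotated transcript start, HOXB3, HOXB6, HOXB13, HOXC4, HOXC9 and HOXC10 were, 15.8% against 26.5%. HOXB6 and HOXB13 were called in all 5 libraries by each of these 4 definitions.

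**Figure D1:**
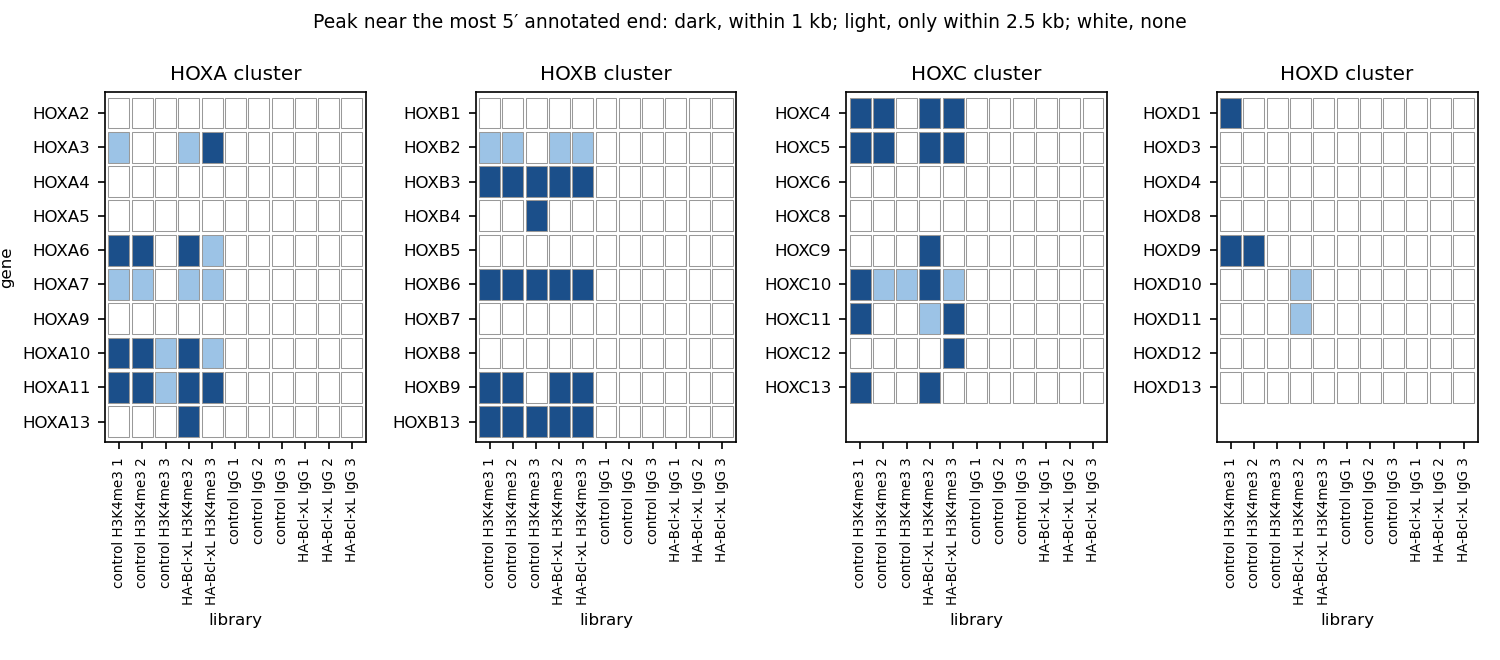
Peak calls for the 38 HOX genes (rows) in the 11 libraries (columns), 1 panel per cluster; dark cells have a peak within 1 kb of the most 5′ end, light cells only within 2.5 kb, white cells none. Dark cells run through all 5 H3K4me3 columns for HOXB3, HOXB6 and HOXB13, most of the HOXD panel is white, and no IgG column holds a filled cell.

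**Figure D2:**
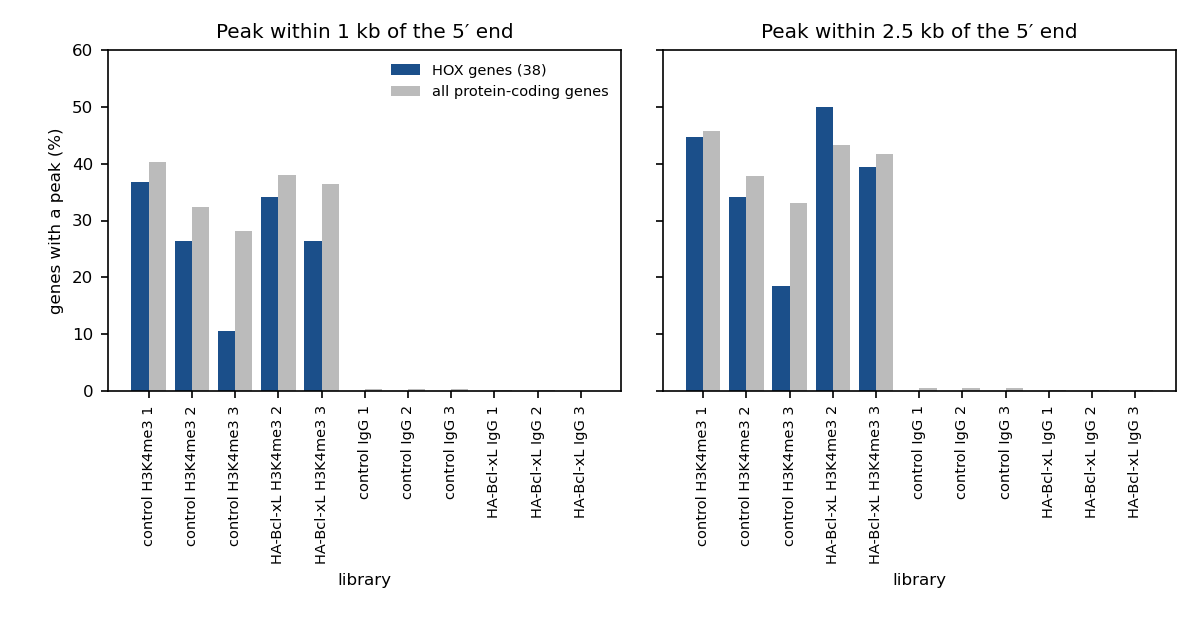
Share of the 38 HOX genes (blue bars) and of all protein-coding genes (grey bars) with a peak in each library, within 1 kb (left) and 2.5 kb (right) of the 5′ end; the axis is in percent of genes. At 1 kb every H3K4me3 library has the lower bar for HOX genes, from 10.5% in control replicate 3 to 36.8% in control replicate 1.

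In all, 5 stretches in the clusters, at HOXB6, HOXB13, HOXC10, HOXC9 and HOXC4, were under a peak in all 5 H3K4me3 libraries. Peaks that touched or overlapped were joined into regions. The bases shared by the peaks of every library were read from GRCh37, on the strand of the gene. Those at HOXB6 and HOXC10 are shown here, since they carry recurrent signal inside gene bodies. They are written 5′ to 3′ with CG dinucleotides, the site of DNA methylation, in capitals. The HOXB6 stretch is chr17:46680085-46680162 (minus strand), in introns of HOXB3, HOXB6 and HOXB-AS3. The HOXC10 stretch is chr12:54380416-54380488 (plus strand), inside HOXC10. The regions that hold these stretches had median summits 291 bp downstream of a HOXB-AS3 start and 240 bp downstream of an internal HOXC10 start.
HOXB6: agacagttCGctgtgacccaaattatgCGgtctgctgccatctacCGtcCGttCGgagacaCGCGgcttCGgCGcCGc
HOXC10: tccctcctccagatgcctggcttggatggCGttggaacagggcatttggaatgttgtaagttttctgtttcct

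The HOXB6 stretch held 10 CG dinucleotides over 78 bases and the HOXC10 stretch 1 over 73 bases. Beside them, 150 bases upstream of the canonical start are printed for an unmarked gene, HOXD13 (chr2:176957299-176957448, plus strand), with CG again in capitals. These examples were chosen with their calls known.
HOXD13 upstream: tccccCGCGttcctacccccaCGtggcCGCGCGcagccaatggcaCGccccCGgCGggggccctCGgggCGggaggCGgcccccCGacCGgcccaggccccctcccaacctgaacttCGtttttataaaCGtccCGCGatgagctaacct

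The HOXD13 window held 18 CG dinucleotides. Over 20133 such windows the median was 12, and 26.5% of them held at least as many as HOXD13. HOXD13, the most posterior HOXD gene and known for its role in digits, lacked a peak within 2.5 kb in all 5 H3K4me3 libraries. CG content was also read over the whole promoter, within 1 kb on both sides of the most 5′ end. A promoter was called CpG-rich at a GC content of at least 55% and an observed over expected CpG ratio of at least 0.65. Of the 38 members, 18 were CpG-rich (47.4%), while 30.9% of all genes were. None of the 18 was marked in all 5 libraries, 2 (HOXA11 and HOXB9) were marked in at least 3 and 10 in at least 1. Among all CpG-rich genes 24.6, 46.7 and 67.5% were marked in all 5, at least 3 and at least 1 library. HOXB3, HOXB6 and HOXB13 had ratios of 0.40, 0.383 and 0.454, below the median of 0.612 over all genes. HOXD8, with the highest ratio of the members (0.955), lacked a peak within 2.5 kb throughout. The median ratio was 0.627 for members marked in no library, 0.712 for those in 1 or 2 and 0.498 for those in at least 3.

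HOXB had 4 of its 10 promoters marked in each of the 5 libraries. HOXB3, HOXB6 and HOXB13 were among them every time, and the other was HOXB4 in control replicate 3 and HOXB9 in the remaining libraries. HOXA had 3, 3 and 0 marked promoters in control and 4 and 2 in HA-Bcl-xL libraries, and HOXC had 5, 2 and 0 against 5 and 4. HOXD had 2, 1 and 0 in control and 0 in both HA-Bcl-xL libraries. Counted by position in the body plan, 1 of 7 anterior genes (paralog groups 1 to 3), 4 of 15 central genes (groups 4 to 8) and 4 of 16 posterior genes (groups 9 to 13) were marked in at least 3 libraries. In at least 1 library the counts were 3 of 7, 5 of 15 and 11 of 16. Of the posterior genes 5 were marked in no library.

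Among the 10 HOXA members analysed, HOXA6, HOXA10 and HOXA11 were marked in at least 3 libraries. At the canonical starts, which lie 2829 bp away for HOXA6 and 5941 bp away for HOXA10, neither of these was marked in any library, and HOXA7 and HOXA11 were marked in at least 3. HOXA2, which patterns the hindbrain and pharyngeal arches, HOXA4, HOXA5 and HOXA9 were without a peak within 2.5 kb in all 5 H3K4me3 libraries. HOXA4 and HOXA5 stood in a stretch of 27.0 kb with no peak in any of them. HOXA6 was marked in control replicates 1 and 2 and in HA-Bcl-xL replicate 2, with summits from 435 bp upstream to 718 bp downstream of its most 5′ end. The nearest peak to HOXA7 lay 1180 bp from its most 5′ end, just outside the 1 kb limit, although its summits in control replicates 1 and 2 and HA-Bcl-xL replicates 2 and 3 lay 13, 18, 28 and 14 bp upstream of the canonical start. The call for HOXA7 at 1 kb thus depended on which transcript was used.

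HOXA10 and HOXA11, posterior genes that act in the limb and the uterine tract, both had peaks within 2.5 kb in all 5 libraries. The HOXA11 peak just inside the 1 kb limit, with its nearest edge at 781 bp, was present in control replicates 1 and 2 and both HA-Bcl-xL libraries, its summit 840 to 864 bp downstream of the start. It rested on 26 and 15 fragments in the control and 18 and 16 in the HA-Bcl-xL libraries. The median summit of this region lay closer to another annotated start, 119 bp upstream of that of the antisense gene HOXA11-AS. The peak cannot be assigned to one gene of this pair. Fragments at a summit were solved from the deposited fold and −log10 p of each peak. HOXA13 had 1 peak, in HA-Bcl-xL replicate 2, and HOXA3 was marked within 1 kb only in HA-Bcl-xL replicate 3.

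In HOXB the region with the highest mean rank, chr17:46680068-46680208, lay in an intron 2123 to 2139 bp downstream of the most 5′ end of HOXB3. It rested on 31, 21 and 16 fragments in the control and on 20 and 28 in the HA-Bcl-xL libraries. Ranked by −log10 p within the own list, it stood at percentiles of 92.0, 81.1 and 65.5 in control and 66.9 and 90.8 in HA-Bcl-xL libraries, so the ranges of the lines overlapped. Its mean percentile was 79.3, beside 72.2 for the region at HOXB13, which ranked higher in HA-Bcl-xL replicate 2 (89.0) and had the higher fold in 3 of the 5 libraries. HOXB3 and HOXB6 were called from the same peaks, because their most 5′ ends lie close together. Another region inside HOXB6, chr17:46681335-46681493, was present in 4 libraries, and in the fifth, control replicate 3, a separate peak with its summit 40 bp upstream of HOXB6 gave the call. The canonical start of HOXB3 lies 14671 bp further downstream, and it was without a peak within 1 kb throughout. HOXB1, HOXB5, HOXB7 and HOXB8 had none within 2.5 kb of their most 5′ ends either. The canonical start of HOXB7, however, lies 22555 bp away from its most 5′ end. A region present in 3 libraries, chr17:46689526-46689681, had its median summit 1228 bp upstream of that canonical start.

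HOXB9 was marked in 4 libraries and HOXB13 in 5. The HOXB9 peaks lay in its coding exon, 463 to 632 bp downstream of the start, and rested on 12 and 9 fragments in control replicates 1 and 2 and on 9 and 7 in HA-Bcl-xL replicates 2 and 3. HOXB13, the most posterior HOXB gene, known for its role in hindgut and prostate, had peaks that overlapped its start in all 5 libraries. Their summits lay 16, 12 and 5 bp upstream of it in the control libraries. The HA-Bcl-xL summits lay 2 bp downstream (replicate 2) and 40 bp upstream (replicate 3). They rested on 10, 10 and 7 fragments in control and 14 and 9 in HA-Bcl-xL libraries, and their widths were 108, 123 and 95 bp against 107 and 142 bp. The HOXB13 peak stood alone, at the end of a stretch of 103.0 kb in which no other region recurred in 3 or more libraries. HOXB2 had peaks 2040 bp or more from its start in 4 libraries, and the median summit of the region they form fell in a UTR exon. HOXB4 had 1 peak, in control replicate 3.

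HOXC held the highest-ranked regions of the 4 clusters. At the canonical start of HOXC4 the peak rested on 26, 18 and 23 fragments in the control and on 17 and 43 in the HA-Bcl-xL libraries. It ranked at percentiles of 96.7, 92.9 and 98.3 in control and 90.8 and 99.7 in HA-Bcl-xL libraries. The HA-Bcl-xL libraries thus gave both the lowest and the highest value. All 5 summits lay 9 to 27 bp upstream of the canonical start, but the most 5′ annotated end of HOXC4 lies 36904 bp away, and the promoter there was marked through another region, chr12:54411388-54411515, in 4 libraries. At HOXC9, a gene of thoracic identity, the 5 summits lay 84 to 113 bp upstream of the canonical start, next to the start of the antisense gene HOXC-AS1. They rested on 27, 19 and 11 fragments in control and 24 and 28 in HA-Bcl-xL libraries. The region cannot be assigned to one gene of this pair.

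HOXC10, a gene of lumbar identity, had its recurrent region chr12:54380359-54380595 at 1576 to 1611 bp downstream of its most 5′ end. It rested on 22, 14 and 13 fragments in control and 20 and 25 in HA-Bcl-xL libraries. Its rank stood at percentiles of 77.5, 46.7 and 52.3 in control and 83.8 and 93.3 in HA-Bcl-xL libraries. These ranks did not overlap between the lines, and the difference was not tested. HOXC5 was marked in all but control replicate 3, on 15 and 14 fragments in control and 14 and 13 in HA-Bcl-xL libraries, with summits 687 to 721 bp downstream of its start. HOXC11, HOXC12 and HOXC13 were marked in 2, 1 and 2 libraries. HOXC6 and HOXC8 were without a peak within 2.5 kb of their most 5′ ends throughout.

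HOXD was nearly bare. Only 4 peaks fell in its 103.0 kb in the 5 H3K4me3 libraries together, and no region recurred in 3 or more. HOXD9 was marked in control replicates 1 and 2, on 9 and 6 fragments with summits 19 and 42 bp upstream of its start, and had no peak in control replicate 3 or in either HA-Bcl-xL library. HOXD1, the anterior end of the cluster, had 1 peak on 4 fragments in control replicate 1. The remaining peak, on 3 fragments in HA-Bcl-xL replicate 2, lay within 2.5 kb of both HOXD10 and HOXD11. HOXD3, HOXD4, HOXD8, HOXD12 and HOXD13 were without a peak within 2.5 kb throughout. HOXD8, HOXD4 and the most 5′ end of HOXD3 stood in the longest peak-free stretch of the 4 clusters, 65.8 kb.

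**Figure D3:**
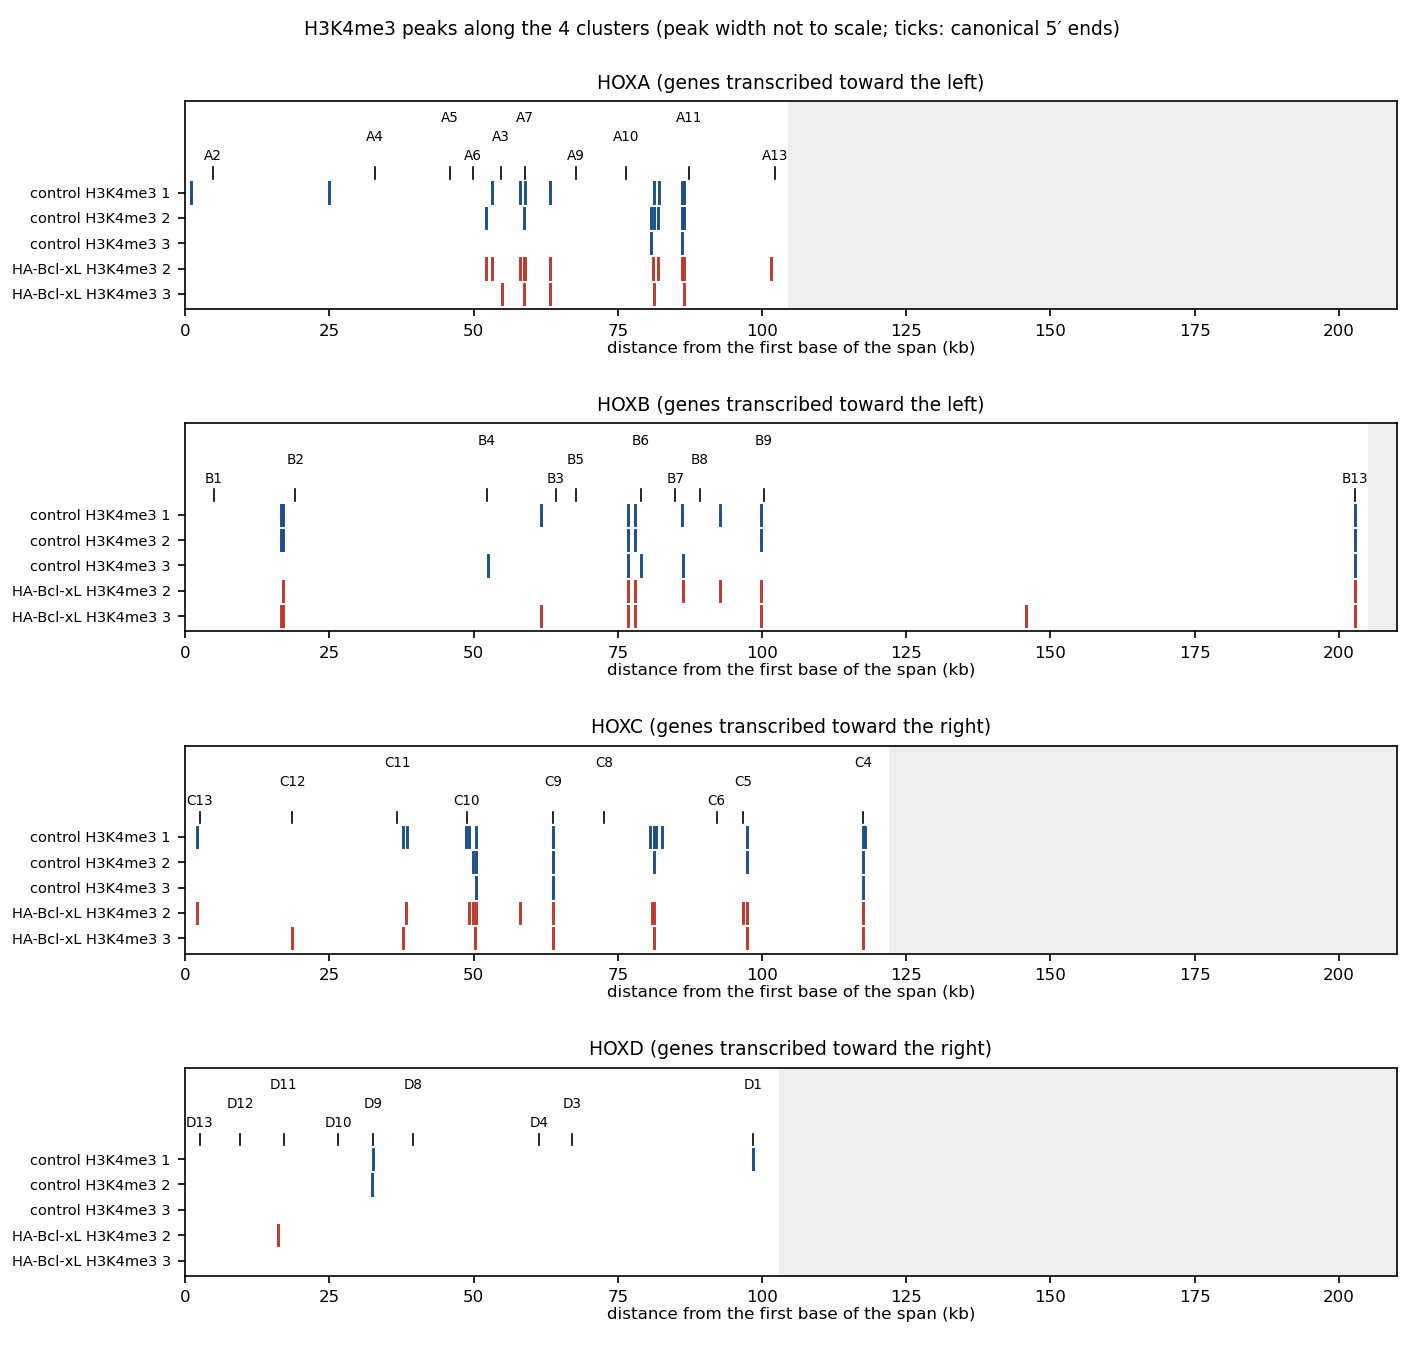
H3K4me3 peaks along the 4 clusters, with the distance from the first base of the span in kb on the x axis and 1 row per library (blue, control; red, HA-Bcl-xL); black ticks are canonical 5′ ends, vertical bars mark peak centres and are wider than the peaks, and grey lies outside the span. Bars line up over all 5 rows at HOXB13, HOXC9, HOXC10, HOXC4 and between HOXB5 and HOXB6, while HOXD has 4 bars in all.

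The 4 spans, taken from the members' gene bodies with 2.5 kb on each side, held 47 regions, 14 in HOXA, 11 in HOXB, 19 in HOXC and 3 in HOXD. Of these 5 were present in all 5 libraries (10.6%, against 16.2% of 30435 regions genome-wide) and 18 in 1 library (38.3% against 49.5%). Of the 17 regions present in at least 3 libraries, 15 had their summit within 1 kb of an annotated transcript start. Peaks were short in the clusters as in the whole lists, with median widths of 101 to 126.5 bp in the clusters and 112 to 128 bp genome-wide over the 5 libraries. Their mean width in the clusters was 132, 147 and 128 bp in the control and 115 and 122 bp in the HA-Bcl-xL libraries. The widest had 355 bp, at HOXB2 in control replicate 1. IgG gave 2 peaks in the spans, 1 in HOXB (HA-Bcl-xL replicate 2) and 1 in HOXC (control replicate 3), and neither overlapped an H3K4me3 region.

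The peak statistics also carried a local background, solved with the fragments from fold and −log10 p. It is the value the caller set against the summit, and which window it was averaged over is not given in the sources used here. At HOXA peaks it was high in every library. The median HOXA peak had a background at percentiles of 97.0, 97.3 and 96.8 of the own list in the control and 97.3 and 97.7 in the HA-Bcl-xL libraries. Of 34 HOXA peaks with a solved background, 32 lay above the 90th percentile, as did 16 of 35 in HOXB, 12 of 42 in HOXC and 0 of 4 in HOXD. The medians over peaks were 97.3, 83.9, 80.8 and 9.39. Peaks within 1 Mb outside the HOXA span were also high, with medians at percentiles of 81.1 to 86.7 over the 5 libraries, and peaks on the rest of chromosome 7 had medians of 48.7 to 52.7. Around HOXB the flanks had medians of 42.4 to 47.4, far below the 71.8 to 93.8 inside the span. Around HOXC they had 37.1 to 50.9, below the 70.2 to 86.6 inside. HOXD went the other way, with 5.42 to 13.6 inside the span, from 4 peaks in 3 libraries, and 40.2 to 73.0 in the flanks of the 5 libraries.

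The background at single genes was read across libraries. At chr7:27218583-27218795, in an intron of HOXA10 and present in control replicates 1 and 2 and both HA-Bcl-xL libraries, it stood at percentiles of 98.8 and 98.0 in control and 98.6 and 98.4 in HA-Bcl-xL cells. At the HOXB13 start it stood at 13.2, 18.6 and 17.8 in control and 24.4 and 18.5 in HA-Bcl-xL libraries. At the HOXC4 canonical start it ranged from 45.0 to 70.2 and at HOXC5 from 21.5 to 37.0. At the region through which HOXC4 was called at 1 kb, chr12:54411388-54411515, it was higher, at 91.1 and 89.0 in control replicates 1 and 2 and 87.5 and 90.2 in HA-Bcl-xL libraries. The peaks at HOXB13 and HOXC5 thus lay over a lower background than those at HOXA10 and at this region. A peak on a high background needs more fragments to pass the same p, and the median HOXA peak had 16, 15 and 14.5 fragments in control and 17 and 16 in HA-Bcl-xL libraries, where the median of all peaks was 12, 10 and 9 and 11 and 11. How far this bears on which HOXA promoters were called was not tested.

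**Figure D4:**
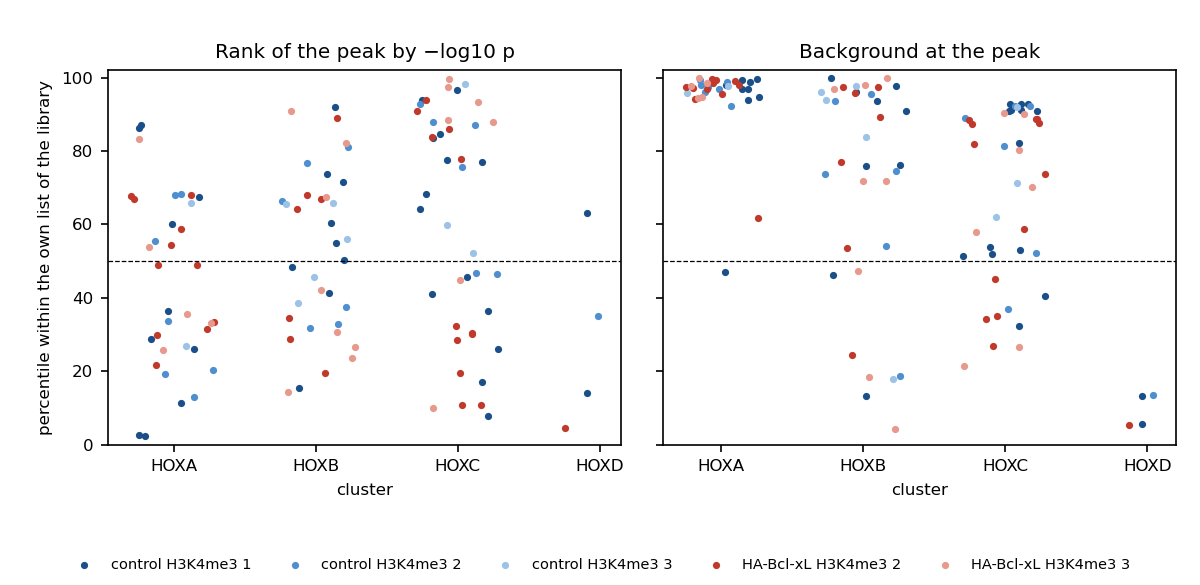
Every H3K4me3 peak in the 4 spans by its rank in −log10 p (left) and by its solved local background (right), both as percentile within the own list of the library; 1 point per peak, coloured by library, with the dashed line at the 50th percentile. HOXA points crowd near the top for background, with a median of 97.3, while the 4 HOXD points lie between 5.42 and 13.6; rank is spread widely in HOXA, HOXB and HOXC.

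By its title the study asked how Bcl-xL overexpression bears on the histone mark. The ranges of the lines overlapped in the number of marked HOX promoters per library. At single members they did not always. Within 1 kb of the most 5′ end of HOXB3, peaks covered 97, 97 and 86 bases in control and 159 and 108 in HA-Bcl-xL libraries. The mean difference in marked promoters, HA-Bcl-xL minus control, was 2.17, less than the pooled SD of 4.29 between libraries of a line. It turned to -0.5 without control replicate 3. No HOX promoter was marked in both HA-Bcl-xL and no control library, and none in all 3 control and no HA-Bcl-xL library, at 1 kb, at 2.5 kb, at the canonical start or at any transcript start. Of all genes 0.844% and 0.248% did so at 1 kb, 0.824% and 0.248% at 2.5 kb, 0.973% and 0.233% at the canonical start and 0.899% and 0.238% at any start. Without control replicate 3, HOXD9 was marked in both remaining control libraries and in neither HA-Bcl-xL library. Within 1 kb of the most 5′ end, HOXA13 and HOXC9 were marked only in HA-Bcl-xL replicate 2, HOXA3 and HOXC12 only in HA-Bcl-xL replicate 3, HOXB4 only in control replicate 3, HOXD1 only in control replicate 1 and HOXD9 only in control replicates 1 and 2. HOXC9 was marked in all 5 libraries at its canonical start, and HOXA3 had peaks within 2.5 kb in control replicate 1 and HA-Bcl-xL replicate 2 as well.

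Peaks covered 4605, 2948 and 1284 bases of the 4 clusters in the control and 3564 and 2449 in the HA-Bcl-xL libraries. Taken over the means of the lines, HA-Bcl-xL over control, the log2 ratio was 0.03, where the genome as a whole had 0.14. It was -0.33 without control replicate 3 and 0.51 without control replicate 1. The clusters held 35, 20 and 10 peaks in control and 31 and 20 in HA-Bcl-xL libraries. The log2 ratio of their means was 0.24, beside 0.25 genome-wide.

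Promoter by promoter, log2 of the bases under peaks within 1 kb, with a pseudocount of 50 bases, was compared with limma over 8313 genes marked in at least 2 libraries. The fit called 0.0% of the genes tested at an adjusted p under 0.05, with a smallest adjusted p of 0.494, and 465 (5.59%) had an unadjusted p under 0.05. Of the members 13 were tested and 25 were not, and 0 of the 13 passed either threshold. Their median difference was 0.16 on this scale, beside 0.07 over all genes tested, with 10 higher and 3 lower in HA-Bcl-xL cells on the fitted scale. By mean bases 8 were higher and 5 lower, since HOXA6, HOXB9, HOXC10 and HOXC13 had means that went against the sign of their fitted difference. The members' median turned to -0.19 without control replicate 3 and was 0.08 without control replicate 1, 0.09 without HA-Bcl-xL replicate 2 and 0.42 without HA-Bcl-xL replicate 3. With pseudocounts of 10 and 200 bases it was 0.33 and 0.03, beside 0.14 and 0.02 over all genes tested. Without centring it was 0.26 and with a replicate block 0.31, beside 0.17 and 0.08. HOXC5 had the highest value, 0.59 ± 0.592 (SE), from 84.3 mean bases in control and 148.0 in HA-Bcl-xL libraries (limma adjusted p = 0.996). HOXD9 had the lowest, -1.29 ± 0.558 (SE), from 82.0 mean bases in control and 0 in HA-Bcl-xL libraries (limma adjusted p = 0.862). HOXB13 had 109.0 and 124.0 mean bases and a difference of 0.04 ± 0.403 (SE). HOXD9 entered the fit through its control libraries alone. Without control replicate 3 it had an unadjusted limma p under 0.05, as the only member in that fit. The standard errors of the 13 members ran from 0.392 (HOXB6) to 0.905 (HOXA6) on this scale. With errors of this size, the lack of calls does not show that the lines were alike.

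Other genes of the HOX system were read the same way. Of 9 genes for HOX cofactors, homeodomain proteins that bind DNA together with HOX proteins, 0 were marked within 1 kb in all 5 libraries and 3 (PBX4, MEIS2 and PKNOX1) in at least 1. PKNOX1 had a peak within 2.5 kb in all 5, and MEIS1 and MEIS2 within 2.5 kb in 4. Of 6 caudal and ParaHox genes, evolutionary relatives of the HOX genes, PDX1, the pancreatic regulator, was marked in 4 libraries, 2 of each line, and 5 were not marked. CDX2, the intestinal regulator, had a peak within 2.5 kb in 1 library. Of 17 noncoding genes of the clusters that were matched, 8 were marked in at least 1 library and 2 in all 5, HOXC-AS1 among them. HOXB-AS1 and MIR615 were marked in 4 and HOTAIR in 3, and MIR10B, MIR196A1, MIR196A2 and MIR196B in none.

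Of 16 flanking genes, the nearest non-HOX genes on either side of each cluster, 9 were marked in at least 1 library and 2 (CALCOCO1 and SMUG1, beside HOXC) in all 5. EVX1 and EVX2, homeobox genes beside HOXA and HOXD, lacked a peak within 2.5 kb throughout. LNPK, next to EVX2, had a peak within 2.5 kb in all 5. MTX2, on the other side of HOXD, was marked in both HA-Bcl-xL and no control library, the only flanking gene split by line, where 0.844% of all genes were.

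The identity of the line was checked on promoters of marker genes. Of 8 neuroendocrine genes CHGB, NEUROD1 and SCG2 were marked in all 5 H3K4me3 libraries and CHGA in 1, and INSM1 had a peak within 2.5 kb in all 5. Of 4 epithelial genes KRT8, KRT18 and CDH1 were marked in all 5 and EPCAM in 4. None of the 3 leukocyte, 2 matched endothelial, 4 fibroblast and 2 hepatocyte genes was marked, and COL1A1 had a peak within 2.5 kb in 1 library. The H3K4me3 lists held 10247 to 17711 peaks and the IgG lists 244 to 2113. The lists give no read totals, so depth is known only in relative terms. The lowest solved background of a list, which scales with depth, was 0.0478 in control replicate 3 and 0.0659 to 0.0705 in the other H3K4me3 libraries.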

How the data were processed

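CUT&RUN peak lists of 11 libraries were used, 1 list per library, so replicates had not been pooled. Per the submitters' processing notes, bcl2fastq 2.20, Trimmomatic 0.36, Bowtie2 2.2.9, MACS2 2.1.1 and deepTools 3.5.1 were used with hg19; their parameters, the handling of duplicates and any control of the peak calling are not given in the sources used here. For each peak the authors deposited a score, which equals 10 times the −log10 q cut to a whole number, a fold enrichment (ratio) at the summit, and −log10 values of p and of q. All are the caller's values per peak and were used only within their own list, apart from the fragments and background solved from them.

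Promoters came from GENCODE release 44 lifted to GRCh37, and duplicated gene names were counted once. The 1-based coordinates are GRCh37. A whole number n of fragments and a background were solved from fold = (n + 1) / (background + 1) and a Poisson tail for p, an arithmetic inferred from the values; it fitted 99.94 to 99.97% of peaks per H3K4me3 list to within 0.001 in −log10 p, and no other whole number came within 0.01 for 93.1 to 95.6%. The step was tested on simulated peaks. Peaks on unplaced and alternative contigs were left out, and the others ranked by −log10 p within their list. Fragment counts carry counting error and may include PCR copies.

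The labels gave the groups and the replicate numbers. HOX counts per library were compared as differences of means beside the SD. Promoters were compared with limma 3.58.1 (R 4.3.3) applied to log2(bases + 50), each library centred on its median over genes marked in all libraries, for genes marked in at least 2 libraries, with Benjamini-Hochberg adjustment over all genes tested; the step was tested on simulated data. Other steps ran in Python 3.11.15 with numpy 2.4.6, pandas 2.3.3, scipy 1.17.1, pysam 0.24.0 and matplotlib 3.10.9. The alternatives tried were equal list lengths, a stricter −log10 q of 5, removal of peaks overlapping IgG peaks, summits in place of overlaps, a 2.5 kb window, canonical or any transcript starts, other pseudocounts and filters, no centring, leaving out each library and a replicate block. The members, gene lists and alternatives were chosen with earlier results of these data known. The rule for named genes was all members in cluster order, in full those with a peak within 2.5 kb in at least 3 libraries or split by line, with lists of cofactors, caudal and ParaHox, noncoding, flanking and cell type marker genes. MIR10A and PECAM1 were not matched in the annotation and not analysed here. The local background in the flanks of the clusters was looked at after its values inside them were seen. Some sequences of regions described in the text are not reported here.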

Additional observations from a re-analysis of the deposited data

How the results depend on the processing

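Of 55 values recomputed under another setting, 46 moved by less than the spread between libraries (for counts of promoters, stayed within 1.5 times), 7 moved further and 2 turned their direction; of 41 with 1 library left out these numbered 32, 6 and 3. That spread is wide, so a value counted as within it may still have changed much in size. The log2 ratio of bases under peaks in the 4 clusters, 0.03, turned to -0.26 at a −log10 q of at least 5 and to -0.42 with equal list lengths, and ranged from -0.33 (without control replicate 3) to 0.51 (without control replicate 1) when each library was left out, with -0.27 without HA-Bcl-xL replicate 2. The difference in marked promoters between the lines, 2.17, was 0.0 with equal list lengths (8.0 in each line), 1.17 at a −log10 q of at least 5 and 4.67 within 2.5 kb, and ranged from -0.5 (without control replicate 3) to 4.5 (without control replicate 1) when each library was left out. Promoters marked in all H3K4me3 libraries numbered 3, 6 within 2.5 kb and 6 over any transcript start, and 3 to 7 with a library left out (7 without control replicate 3, which leaves 4 libraries). Promoters in both HA-Bcl-xL and no control library ranged from 0 to 2, with 2 when either HA-Bcl-xL library was left out, and those in all control and no HA-Bcl-xL library from 0 to 1. The excess of marked promoters over IgG in HA-Bcl-xL cells, 11.5, was 8.50 at the stricter threshold, 8.00 with equal list lengths, 17.00 within 2.5 kb and 15.50 over any transcript start, with 10 to 13 on leaving out a library. In control cells it was 9.33, with 13.00 over any transcript start and 7 to 12 on leaving out a library. The cause of each turn was not tested. The number of promoters limma called stayed at 0 throughout, with 221 to 794 at an unadjusted p under 0.05.

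The labels tie same-numbered libraries of the lines by their number only. The correlation of their deviations was 0.0168 for replicate 2 and 0.0379 for replicate 3. With 2 HA-Bcl-xL libraries their deviations mirror each other, so these values are not separate checks. They cannot show whether such libraries share a batch. With the replicate block, limited to replicates 2 and 3 for the counts, the difference in marked promoters was 4.5, the log2 ratio of bases 0.6 and the promoters called by limma 0 (672 at an unadjusted p under 0.05, beside 465 without the block). Summits resting on as few as 3 fragments limit what can be said of unmarked promoters. A missing peak means that no signal passed over the local background at this depth, not that the mark was absent. The solved background may itself hold H3K4me3 signal spread over a stretch, which was not tested.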
